A study of Homo sapiens with 12 samples.

Results

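The mitochondrial ribosomal proteins were taken as every row of the deposited expression table whose gene name begins with MRPL (large subunit) or MRPS (small subunit) followed by a digit. This gave 77 of the 34687 rows, 48 MRPL and 29 MRPS. HCT116, an established human colorectal cancer cell line, and PANC1, an established human pancreatic adenocarcinoma cell line, were treated with 10 uM ICG-001, with 10 uM C646 or with the solvent DMSO at 0.05%, and RNA was collected after 12 or 96 h. ICG-001 binds the histone acetyltransferase CBP and blocks its contact with β-catenin, and C646 is a competitive inhibitor of the acetyltransferase domain of p300 that is thought to act on CBP as well. The study set the drugs against each other to ask whether blocking CBP alone changes the transcriptome in another way than blocking both enzymes. Each of the 12 combinations of line, treatment and time was deposited as 1 column. The authors averaged 2 arrays for 11 of them and 3 for PANC1 cells given ICG-001 for 12 h. The spread between arrays was therefore not in the values used here. No comparison below carries a test, an error or a p-value, and differences are given by size, beside the same measure over all genes in the table.

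The mitochondrial ribosome translates the few proteins that the mitochondrial genome encodes, all of them parts of the respiratory chain and the ATP synthase. Its own proteins are encoded in the nucleus, made in the cytosol and imported, and they join ribosomal RNAs made inside the organelle. Some of them descend from bacterial ribosomal proteins, and others have no bacterial counterpart and enlarge the mitochondrial particle. In tumor cells and other dividing cells their genes are transcribed broadly, and many are reported targets of ETS-family factors, NRF1 and YY1.

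All 77 mitochondrial ribosomal protein genes were above the detection limit in all 12 columns. This limit was 143.6 to 144.2 for HCT116 columns and 135.2 to 138.0 for PANC1 columns in units of signal, where signal is the brightness of the probes on a linear scale. The median member signal was 1564 in HCT116 cells with DMSO at 12 h and 1262 in the matching PANC1 column. MRPL42P5 was close to the limit, at 146 to 166 in HCT116 and 151 to 194 in PANC1, and was the dimmest in every column except those of ICG-001 and C646 in PANC1 at 96 h, where MRPS14 was, at 167 and 169. MRPL42P5 is a transcribed pseudogene in RefSeq and not a ribosomal protein gene. Another 75 names were current symbols of protein-coding genes. MRPS36 is an older name for KGD4, now counted as a part of the ketoglutarate dehydrogenase complex. MRPS18A and MRPS30 carry small-subunit names, but their proteins lie in the large subunit of the mitochondrial particle. RefSeq lists pseudogenes named for 40 of the 77 genes, 3 of them for MRPS10 and 3 for MRPS16, and whether the probes read these copies was not tested.

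The epithelial markers KRT8, KRT18, KRT19, EPCAM and CDH1 were above the limit in every column of both lines. Among intestinal markers in HCT116, CDX2 was detected at 354 to 452, while CDX1, VIL1 and LGALS4 were under the limit in all 6 columns and GPA33 lay close to it. In PANC1 the duct markers MUC1, SOX9 and KRT7 were detected in all 6 columns and CFTR in 1. These markers did not separate the lines. In PANC1 the intestinal marker CDX2 was above the limit in all 6 columns, at 187 to 223, and LGALS4 and GPA33 in 5 each. CDX1 and VIL1 were under it there too. In HCT116 the duct markers SOX9 and MUC1 were above it in all 6 columns, KRT7 in 4 and CFTR in 2. The leukocyte marker PTPRC and the endothelial marker PECAM1 were under the limit in all 12 columns, while the fibroblast gene COL1A1 was above it in all 12, at 173 to 379.

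The promoters of 5 genes are shown as examples of genes that held one direction and of the motif matches among them: MRPS10 and MRPS25 were above DMSO in all 8 comparisons with a drug, MRPL48 and MRPL12 were below DMSO in all 8, and MRPL17 was above DMSO in all 4 comparisons with ICG-001. Each is the 250 bases before the first listed start of the gene in the RefSeq promoter table for GRCh38.p14, printed on the strand of the gene, 5′ to 3′. Capitals mark an ETS-type match (CCGGAAG, or CTTCCGG where it lies on the other strand) or an NRF1-type match (GCGCA and GCGC with 1 base of any kind between them). The windows are chr6:42217862-42218111 (minus strand) for MRPS10, chr3:15065316-15065565 (minus) for MRPS25, chr11:6683341-6683590 (minus) for MRPL17, chr11:73787624-73787873 (plus) for MRPL48 and chr17:81703117-81703366 (plus) for MRPL12.
MRPS10: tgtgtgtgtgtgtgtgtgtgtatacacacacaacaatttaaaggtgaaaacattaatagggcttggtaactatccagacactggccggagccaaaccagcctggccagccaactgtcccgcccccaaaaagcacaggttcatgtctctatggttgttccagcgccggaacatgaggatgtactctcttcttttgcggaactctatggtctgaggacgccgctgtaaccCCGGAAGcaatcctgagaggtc
MRPS25: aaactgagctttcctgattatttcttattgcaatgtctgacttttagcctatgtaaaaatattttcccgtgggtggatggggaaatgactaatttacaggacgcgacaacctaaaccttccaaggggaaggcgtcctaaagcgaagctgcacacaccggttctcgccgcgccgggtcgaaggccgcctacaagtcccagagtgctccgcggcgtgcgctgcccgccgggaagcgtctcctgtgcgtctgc
MRPL17: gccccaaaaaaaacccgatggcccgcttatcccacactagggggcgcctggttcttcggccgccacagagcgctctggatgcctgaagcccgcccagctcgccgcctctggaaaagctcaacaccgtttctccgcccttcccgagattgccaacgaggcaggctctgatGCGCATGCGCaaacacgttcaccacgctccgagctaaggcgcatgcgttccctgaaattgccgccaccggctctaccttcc
MRPL48: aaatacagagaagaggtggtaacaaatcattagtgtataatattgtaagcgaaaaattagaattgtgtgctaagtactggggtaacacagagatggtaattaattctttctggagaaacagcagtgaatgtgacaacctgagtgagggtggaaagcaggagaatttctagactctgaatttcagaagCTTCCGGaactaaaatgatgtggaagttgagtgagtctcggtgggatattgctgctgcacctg
MRPL12: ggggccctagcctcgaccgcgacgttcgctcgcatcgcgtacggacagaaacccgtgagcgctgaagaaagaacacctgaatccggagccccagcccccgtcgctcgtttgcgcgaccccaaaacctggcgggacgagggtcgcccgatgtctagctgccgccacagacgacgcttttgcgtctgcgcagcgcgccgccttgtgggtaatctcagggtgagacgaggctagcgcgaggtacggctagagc
The same ETS-type match began 22 bases before the start in MRPS10, which was above DMSO throughout, and 63 bases before it in MRPL48, which was below DMSO throughout. The NRF1-type match in MRPL17 began 81 bases before the start. None of the searched letters was found in the windows of MRPS25 and MRPL12.

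A promoter was found in that table for 68 of the 77 genes. Searched on both strands, the ETS-type letters CCGGAAG occurred in 22 of the 68 windows (32.4%) and in 8.82% of the windows of all 27305 genes. They were found in 13 of 40 large-subunit and 9 of 28 small-subunit promoters. The NRF1-type letters (GCGCA, 1 base of any kind, GCGC) occurred in 7 of the 68 (10.3%, against 5.53% of all genes), and the YY1-type letters AAGATGGC in 5 (7.35%, against 1.37%). With ICG-001 in HCT116 at 12 h the median log2 change was -0.18 for the 22 genes with the ETS-type match and -0.17 for the 46 without it. In PANC1 at 96 h the medians were -0.14 and -0.22 with ICG-001, but -0.20 and -0.12 with C646, so which set lay lower depended on the comparison. A match is a description of the sequence and was not tied to binding of any factor here.

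At each time in each line the median change of the members over DMSO was lower for ICG-001 than for C646. In PANC1 the medians lay close, at -0.13 and -0.11 at 12 h and -0.17 and -0.14 at 96 h. Set directly against C646 there, 38 of the 77 genes were lower with ICG-001 at 12 h and 41 at 96 h. In HCT116 at 12 h, 64 of the 77 genes were below the DMSO column, with a median log2 change of -0.18, where the median of all 16906 genes compared was 0.00 and 49.7% of them were below DMSO. At a 1.2-fold difference 29 members (16.6% of all genes) were lower and 2 (16%) were higher, the percentage in parentheses being the share of all genes compared that changed by that much in that direction. At 1.5-fold 5 members were lower (4.19% of all genes) and 1 was higher (4.86%). The 5 that fell were MRPL52, MRPS34, MRPS24, MRPS6 and MRPS27, and the 1 that rose was MRPS10.

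At 96 h in HCT116 the median change with ICG-001 was again -0.18, but the genes were spread more widely. Here 25 members fell by 1.2-fold or more (17.5% of all genes) and 8 rose (16.8%). At 1.5-fold 3 fell (5.16%), namely MRPS27, MRPS6 and MRPL30, and 3 rose (5.19%), namely MRPS16, MRPL17 and MRPS10. All genes moved most in these HCT116 columns, and the members past 1.5-fold, 6 of 77 at each time, were no larger a share than that.

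In PANC1 with ICG-001 at 12 h the median was -0.13, and 18 members were lower by 1.2-fold (7.55% of all genes) and 4 higher (9.60%). Only MRPL2 passed 1.5-fold downward (0.338% of all genes) and no member passed it upward (2.19%). At 96 h the median was -0.17, and 31 members fell by 1.2-fold (15.2%) while 8 rose (14.3%). This column pair held the most members past 1.5-fold of the 12 drug comparisons: 9 fell (3.58% of all genes) and none rose (3.87%). They were MRPL2, MRPL15, MRPL1, MRPL52, MRPL55, MRPS9, MRPL12, MRPS7 and MRPS11.

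With C646 the counts depended on the control. In HCT116 no member passed 1.5-fold at 12 h (2.62% of all genes higher, 1.54% lower) or at 96 h (1.91% higher, 1.23% lower). At 1.2-fold 7 rose (10.7%) and 4 fell (11.3%) at 12 h, with a median of 0.03, and 6 rose (9.90%) and 9 fell (9.96%) at 96 h, with a median of -0.05. In PANC1 the medians were -0.11 at 12 h and -0.14 at 96 h. There 17 members fell (13.4%) and 5 rose (13.4%) by 1.2-fold at 12 h, and 21 fell (11.3%) and 1 rose (10.1%) at 96 h. At 1.5-fold MRPS27, MRPL2 and MRPL12 fell at 12 h (2.71%) and MRPL12 and MRPL48 at 96 h (1.19%), while MRPS25 rose at both times (4.02% and 2.83%). With the mean of both DMSO columns of a line as the control, the members past 1.2-fold at 12 h numbered 26 in HCT116 and 12 in PANC1, and at 96 h 27 and 28. Against that control MRPS27, MRPL2 and MRPL12 were no longer past 1.5-fold in PANC1 at 12 h. Whether the lines differed in their response to C646 was not tested.

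**Figure D1:**
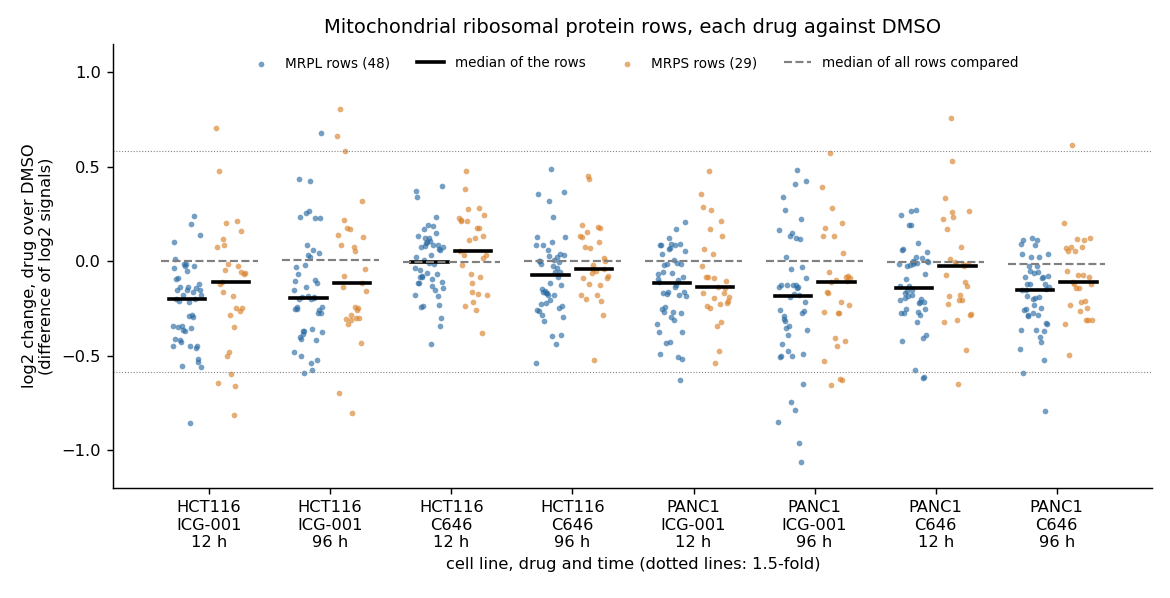
Log2 change of each MRPL (blue, 48) and MRPS (orange, 29) gene in each drug column over the DMSO column of the same line and time. Black bars are the medians of the points, dashed grey lines the median of all genes compared, and dotted lines mark 1.5-fold; the black bars lie below the dashed line in every comparison except C646 at 12 h in HCT116.

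The DMSO columns set the scale for these shifts. In HCT116 with DMSO, 68 of the 77 genes were lower at 96 h than at 12 h, with a median of -0.20, and 33 fell by 1.2-fold (10.3% of all genes) against 1 that rose (11.9%). MRPL20 (-0.81), MRPL12 (-0.72) and MRPL49 (-0.65) were the 3 past 1.5-fold (1.57%), all downward, and none rose that much (1.57%). Without drug, the later time went with a shift as large as the one between ICG-001 and DMSO. With the mean of both DMSO columns as the control, the HCT116 medians at 12 h became -0.10 (ICG-001) and 0.14 (the other drug, C646). Those at 96 h moved the other way, to -0.24 and -0.15. In PANC1 the median was -0.08, with 10 members lower (6.35%) and 4 higher (9.03%) by 1.2-fold and MRPL39 alone, at -0.59, lower by 1.5-fold (0.334%), with none higher (0.983%). By the study's methods the 96-h cultures were started sparser than the 12-h cultures and were passaged during treatment, so time, density and passage cannot be told apart.

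The level in each column shows the same order. Relative to each gene's mean over the 6 columns of its line, the median member stood at 0.17 in HCT116 with DMSO at 12 h and 0.19 with C646 at 12 h. It stood at -0.00 with ICG-001 at 12 h, -0.04 with DMSO at 96 h, -0.10 with C646 at 96 h and -0.20 with ICG-001 at 96 h. The lowest of the 6 columns was ICG-001 at 96 h for 33 of the 77 genes and C646 at 96 h for 22. In PANC1 the medians ran from 0.15 with DMSO at 12 h to -0.13 with ICG-001 at 96 h, the lowest column for 37 genes, while DMSO at 12 h was the highest column for 41.

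**Figure D2:**
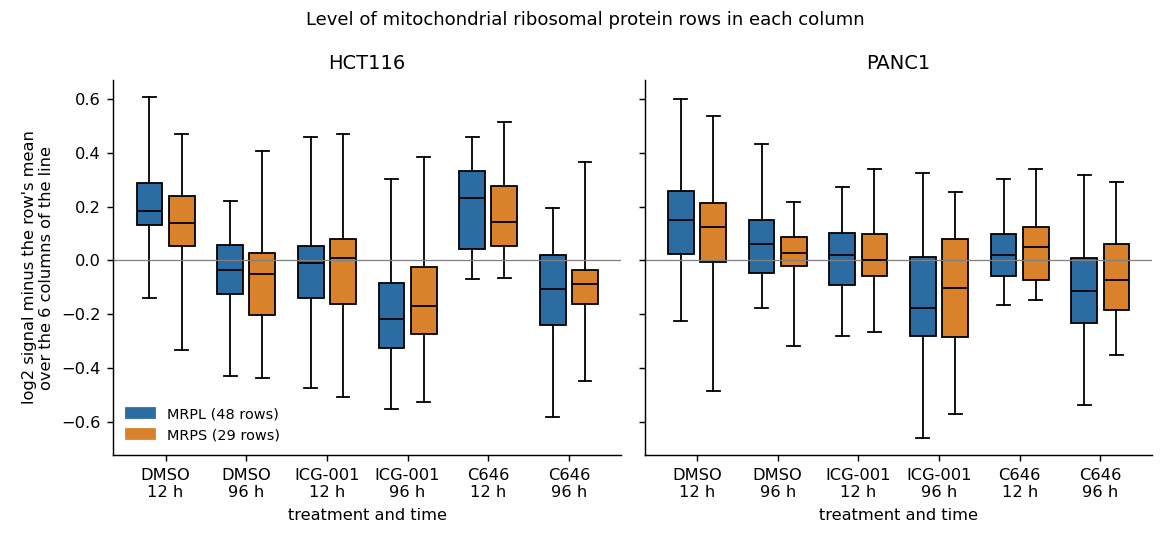
Level of the MRPL (blue) and MRPS (orange) genes in the 6 columns of each line, as log2 signal minus the gene's own mean over those columns. Boxes span the quartiles with the median as a line, and whiskers reach the lowest and highest gene; in both lines the ICG-001 96 h boxes sit lowest.

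The median member varied over the 6 columns of a line by 0.60 on the log2 scale in HCT116 and 0.48 in PANC1. Over the genes detected in any column of the line (18994 and 19299) the medians were 0.37 and 0.29. The 2 sets were not matched for brightness, and changes of dim genes look smaller where background is left in. Whether the members vary more than genes of like signal was not tested. The steadiest member was MRPS18B in HCT116, with a range of 0.16, and MRPL51 in PANC1, with 0.09. The widest ranges were those of MRPL12 in HCT116, 1.11, and MRPL2 in PANC1, 1.201. Where a gene stayed under the limit throughout a line, the standard deviation of the log2 difference was 0.062 to 0.074, which describes dim signals and is not an error of the member values.

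Direction held across columns that share no measurement. In HCT116, 48 of the 77 genes (62.3%) were below DMSO with ICG-001 at both times, against 32.9% of all genes. In PANC1 the count was 49 (63.6%, against 32.7%). Over the 4 ICG-001 comparisons of both lines, 38 genes (49.4%) were always below DMSO, against 18.5% of all genes detected in both lines, and 3 (3.90%, against 18.6%), MRPL17, MRPS10 and MRPS25, were always above it. The 12-h and 96-h comparisons use different drug and control columns, and no column is used in more than 1 of the 4. Against the mean of both DMSO columns of a line, some of the 38 were above 0 with ICG-001 at 12 h. They were MRPL9, MRPL47, MRPS2 and MRPS14 in HCT116, at 0.02 to 0.04. In PANC1 they were MRPL38, MRPL43, MRPL54 and MRPS15, at 0.01 to 0.10.

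With C646 the count below DMSO at both times was 29 in HCT116 (37.7%, against 34.5% of all genes) and 49 in PANC1 (63.6%, against 37.2%). Below DMSO in all 4 were 23 genes (29.9%, against 21.7%), and above it in all 4 were 8 (10.4%, against 20.0%). These comparisons share their DMSO columns with those of ICG-001. Below DMSO in all 8 drug comparisons were 14 genes (18.2%, against 9.73%), MRPL1, MRPL4, MRPL12, MRPL19, MRPL38, MRPL45, MRPL48, MRPL53, MRPS15, MRPS21, MRPS27, MRPS33, MRPS34 and MRPS35. Some did not keep this against the mean of both DMSO columns of a line. There MRPL1 and MRPL12 stood at 0.14 and 0.01 with C646 in HCT116 at 12 h. MRPL38 and MRPS15 stood at 0.03 and 0.01 with ICG-001 in PANC1 at 12 h.

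The medians of the subunits lay close together. With ICG-001 in HCT116 at 12 h the median was -0.20 for MRPL and -0.11 for MRPS genes, with 43 of 48 and 21 of 29 below DMSO. At 96 h it was -0.19 and -0.12. In PANC1 it was -0.12 and -0.14 at 12 h and -0.18 and -0.11 at 96 h. The widest gap between the medians in the 8 comparisons, 0.12 lower for MRPL, was found with C646 in PANC1 at 12 h, -0.14 against -0.03. Counting MRPS18A and MRPS30 with the large subunit reversed none of these differences.

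The stalk is the flexible arm that recruits translation factors, and 4 of its genes were measured, MRPL10, MRPL11, MRPL12 and MRPL53. Their median log2 change with ICG-001 was -0.38 in HCT116 at both times, and 3 of the 4 fell by 1.2-fold at each (16.6% and 17.5% of all genes). The PANC1 medians were -0.17 at 12 h, with 2 of 4 down (7.55%), and -0.31 at 96 h, with 3 down (15.2%). With C646 they were -0.16 and -0.14 in HCT116, then -0.13 and -0.19 in PANC1. MRPL10, the stalk base protein, was not among the lower ones in HCT116 at 12 h, at 0.20 and 0.18 with ICG-001 and C646. MRPL12, which makes up the mobile copies of the arm and also binds the mitochondrial RNA polymerase, had the widest range of the members over the HCT116 columns. Its signal in HCT116 was 2127 with DMSO at 12 h and 1295 at 96 h. ICG-001 gave 1484 and 1084 at these times, and C646 gave 1674 and 989. The PANC1 values were 2003 and 1577 for DMSO, 1401 and 1004 for ICG-001, and 1308 and 910 for C646. Both drug columns lay under the DMSO column of the same time in both lines, and the log2 change ran from -0.26 to -0.79. MRPL11, at the base of the stalk, fell by 1.2-fold in the 4 ICG-001 comparisons (-0.42 and -0.41 in HCT116, -0.27 and -0.32 in PANC1), while its C646 values lay between -0.12 and 0.08.

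MRPL1 forms the other movable arm, which handles the outgoing tRNA. Its log2 change with ICG-001 at 12 and 96 h was -0.34 and -0.48 for HCT116, then -0.33 and -0.85 for PANC1. With C646 it was -0.04 and -0.02 at 12 h and -0.54 and -0.46 at 96 h, so that the C646 columns at 12 h stood near DMSO and those at 96 h did not.

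MRPL2 and MRPL15, counterparts of bacterial proteins of the subunit core, gave the largest falls of the set in PANC1. The MRPL2 signal there was 580 with DMSO at 12 h and 527 at 96 h, 375 and 252 for ICG-001, and 379 and 367 for C646. In HCT116 it was 1166 and 1028 with DMSO, 848 and 716 for ICG-001, and 1239 and 1025 for C646. Both drugs lay below DMSO in PANC1, while in HCT116 ICG-001 did and the C646 columns stood at 0.09 and -0.00 over DMSO. The fall of 1.06 on the log2 scale with ICG-001 at 96 h in PANC1 was the only change past 2-fold among the members in the deposited values. After normexp background correction MRPL15 (-1.01) and MRPL52 (-1.01) in the same columns and MRPS34 (-1.04) and MRPL52 (-1.03) with ICG-001 in HCT116 at 12 h also passed it. So did MRPL52 (-1.13) for ICG-001 over C646 in PANC1 at 96 h. In the deposited values MRPL15 fell by 0.96 with ICG-001 in PANC1 at 96 h, from a signal of 2624 to 1347, against -0.25 with C646. Its changes in HCT116 lay between -0.30 and 0.23.

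**Figure D3:**
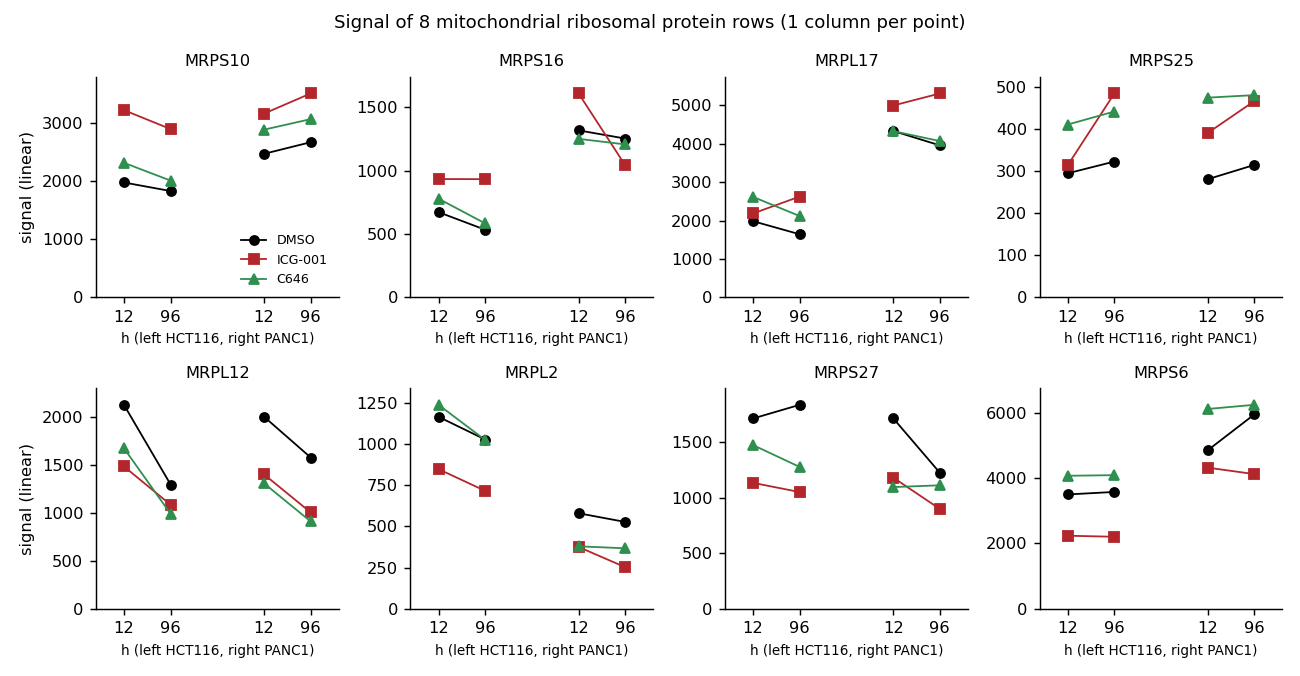
Linear signal of 8 mitochondrial ribosomal protein genes in the 12 columns, 1 point per column, with HCT116 on the left and PANC1 on the right of each panel and lines joining 12 h to 96 h of 1 treatment. Each panel has its own axis from 0; MRPS10 and MRPS25 lie above DMSO (black circles) with both drugs, and MRPL12 and MRPS27 lie below it.

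At the exit of the peptide tunnel, where new chains leave the ribosome toward the inner membrane, 6 genes were measured, and their medians lay between -0.24 and -0.01 in the 8 comparisons. MRPL17 was the highest of them in the 4 HCT116 comparisons. Its signal in HCT116 was 1982 with DMSO at 12 h and 1641 at 96 h, 2184 and 2625 for ICG-001, and 2614 and 2115 for C646. For PANC1 they were 4332 and 3956 for DMSO, 4993 and 5308 for ICG-001, and 4328 and 4068 for C646. It rose by 0.68 with ICG-001 in HCT116 at 96 h, the columns in which MRPL45, which holds the ribosome to the membrane, was lowest of the 6 at -0.50. MRPL22 was the highest in PANC1 with ICG-001 at 96 h, at 0.48 against 0.42 for MRPL17, and was -0.28 in HCT116 with ICG-001 at 12 h. MRPL24 fell by 0.30 with C646 in HCT116 at 12 h and by 0.33 in PANC1 at 96 h.

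The central protuberance, where the subunits and the tRNAs meet, was represented by 7 genes. With ICG-001 at 12 h all 7 were below DMSO in HCT116 (median -0.22) and 6 of 7 in PANC1 (median -0.27), where 49.7% and 49.8% of all genes were below DMSO. At 96 h 3 of 7 were below it in HCT116 (median 0.02) and 6 of 7 in PANC1 (median -0.17). MRPL48 fell by 1.2-fold in all 4 PANC1 comparisons, by 0.49 and 0.50 under ICG-001 and, under C646, by 0.42 and 0.59, and was -0.11 to -0.26 in HCT116. MRPL40 fell by 1.2-fold in all 4 C646 comparisons, by 0.44 and 0.39 in HCT116 and by 0.58 and 0.37 in PANC1, with 0.02 in HCT116 with ICG-001 at 96 h. MRPL38 fell by 0.44 and 0.40 with C646 at 96 h in HCT116 and PANC1. MRPL46 fell by 0.53 with ICG-001 at 12 h in HCT116 and stood at 0.04 at 96 h. MRPL55 fell by 0.74 with ICG-001 in PANC1 at 96 h and was -0.14 in the matching HCT116 columns. MRPL27, a protein near the catalytic center, was the highest member with C646 in HCT116 at 96 h, at 0.49, from a signal of 478 to 671.

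Among the other large-subunit genes MRPL52 had the deepest fall in HCT116. Its signal there was 832 with DMSO at 12 h and 607 at 96 h, 460 and 529 for ICG-001, and 781 and 713 for C646. PANC1 cells had 480 and 541 for DMSO, 386 and 313 for ICG-001, and 579 and 584 for C646. The ICG-001 columns were the lowest in both lines at both times, with log2 changes of -0.85 in HCT116 at 12 h and -0.79 in PANC1 at 96 h, whereas C646 lay above DMSO in 3 of the 4 comparisons. MRPL32, MRPL33 and MRPL39 fell by 0.56, 0.45 and 0.56 with ICG-001 in HCT116 at 12 h. Of these MRPL33 was at 0.12 with ICG-001 in PANC1 at 96 h. MRPL30 fell by 0.59 with ICG-001 in HCT116 at 96 h. MRPL41 rose by 0.44 with ICG-001 at 96 h in HCT116 and by 0.34 in PANC1, with values of -0.15 and 0.04 at 12 h. MRPL21 was at 0.17 with ICG-001 and fell by 0.37 with C646 in PANC1 at 96 h, and MRPL54 fell by 0.41 and 0.37 with C646 in PANC1. The pseudogene MRPL42P5 lay at 0.27 with C646 in PANC1 at 12 h, a difference of signals near the limit.

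In the small subunit, MRPS10 rose by 1.2-fold in the 4 ICG-001 comparisons and lay above DMSO in the 4 of C646. It is the counterpart of a bacterial protein of the head of the subunit. Its signal in HCT116 was 1976 with DMSO at 12 h and 1829 at 96 h, 3221 and 2895 for ICG-001, and 2315 and 2008 for C646. In PANC1 cells the gene gave 2469 and 2669 for DMSO, 3161 and 3508 for ICG-001, and 2885 and 3066 for C646. In both lines and at both times ICG-001 was highest, C646 next and DMSO lowest. The log2 change with ICG-001 at 12 and 96 h was 0.70 and 0.66 for HCT116, then 0.36 and 0.39 for PANC1. With C646 it was 0.13 to 0.23.

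MRPS25, which has no bacterial counterpart, rose by 1.2-fold in 7 of the 8 comparisons. In HCT116 its signal was 295 and 323 with DMSO at 12 and 96 h, 314 and 485 for ICG-001, and 411 and 442 for C646. The matching PANC1 signals were 281 and 315 for DMSO, 391 and 467 for ICG-001, and 475 and 481 for C646. The change was smallest with ICG-001 in HCT116 at 12 h, at 0.09, and largest with C646 in PANC1 at 12 h, at 0.76.

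MRPS16 followed MRPS10 in HCT116 but not in PANC1. Its signal in HCT116 was 672 and 533 with DMSO, 933 and 932 for ICG-001, and 778 and 583 for C646. The largest rise of any member, 0.81 on the log2 scale, was that with ICG-001 at 96 h. For PANC1 they were 1317 and 1252 for DMSO, 1608 and 1041 for ICG-001, and 1250 and 1206 for C646, so the ICG-001 column was above DMSO at 12 h and below it at 96 h.

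MRPS27, a protein with repeats of the kind found in RNA-binding proteins of mitochondria, fell in most comparisons. In HCT116 its signal was 1713 and 1836 with DMSO at 12 and 96 h, 1133 and 1050 for ICG-001, and 1473 and 1276 for C646. PANC1 cells had 1715 and 1224 for DMSO, 1181 and 898 for ICG-001, and 1095 and 1111 for C646. Both drug columns lay under the DMSO column of the same time throughout, by 0.45 to 0.81 with ICG-001 and by 0.14 to 0.65 with C646. MRPS34 fell by 0.81 with ICG-001 in HCT116 at 12 h, from 611 to 347, and its other changes were between -0.14 and -0.27. MRPS21 fell by 0.38 with C646 in HCT116 and by 0.47 in PANC1 at 12 h.

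MRPS6 moved apart with the drugs. Its signal in HCT116 was 3499 and 3576 with DMSO at 12 and 96 h, 2235 and 2203 for ICG-001, and 4071 and 4090 for C646. In PANC1 cells the gene gave 4852 and 5953 for DMSO, 4320 and 4122 for ICG-001, and 6117 and 6245 for C646. The C646 columns were the highest and the ICG-001 columns the lowest at each time in both lines. Set directly against C646, ICG-001 gave differences of -0.87 and -0.89 in HCT116 cells, and of -0.50 and -0.60 in PANC1 cells.

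Genes of the mRNA channel and decoding region showed a like difference between the drugs. The 5 measured were MRPS5 and MRPS24 at the mRNA entrance, MRPS7 and MRPS11 beside the tRNA and mRNA path, and MRPS12 at the decoding center. Their median change with ICG-001 at 12 and 96 h was -0.35 and -0.26 for HCT116, then -0.23 and -0.41 for PANC1. The C646 medians were 0.17 and 0.15 for HCT116, then -0.01 and 0.07 for PANC1. MRPS24 fell by 0.66 with ICG-001 in HCT116 at 12 h, and MRPS7 and MRPS11 fell by 0.63 and 0.62 with ICG-001 in PANC1 at 96 h, when MRPS7 was at 0.11 and MRPS11 at 0.07 with C646. MRPS12 lay above DMSO in HCT116 with both drugs, by 0.12 to 0.38, and changed by -0.08 to 0.07 in PANC1. Set directly against C646, MRPS12 was at -0.27 and 0.06 with ICG-001 in HCT116 and at -0.09 and -0.13 in PANC1. MRPS24 differed little between the drugs in PANC1 at 12 h, at -0.23 with ICG-001 and -0.21 with C646.

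The other small-subunit names showed no common pattern. MRPS9 fell by 0.66 with ICG-001 in PANC1 at 96 h. MRPS31 fell by 0.50 and 0.33 with ICG-001 in HCT116 and rose by 0.27 and 0.28 in PANC1. MRPS23 fell by 0.32 and 0.33 with C646 in PANC1 and lay at 0.14 in HCT116 and 0.13 in PANC1 with ICG-001 at 96 h. MRPS18A rose by 0.43 with C646 in HCT116 at 96 h and by 0.53 in PANC1 at 12 h, and was at -0.12 in PANC1 at 96 h.

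**Figure D4:**
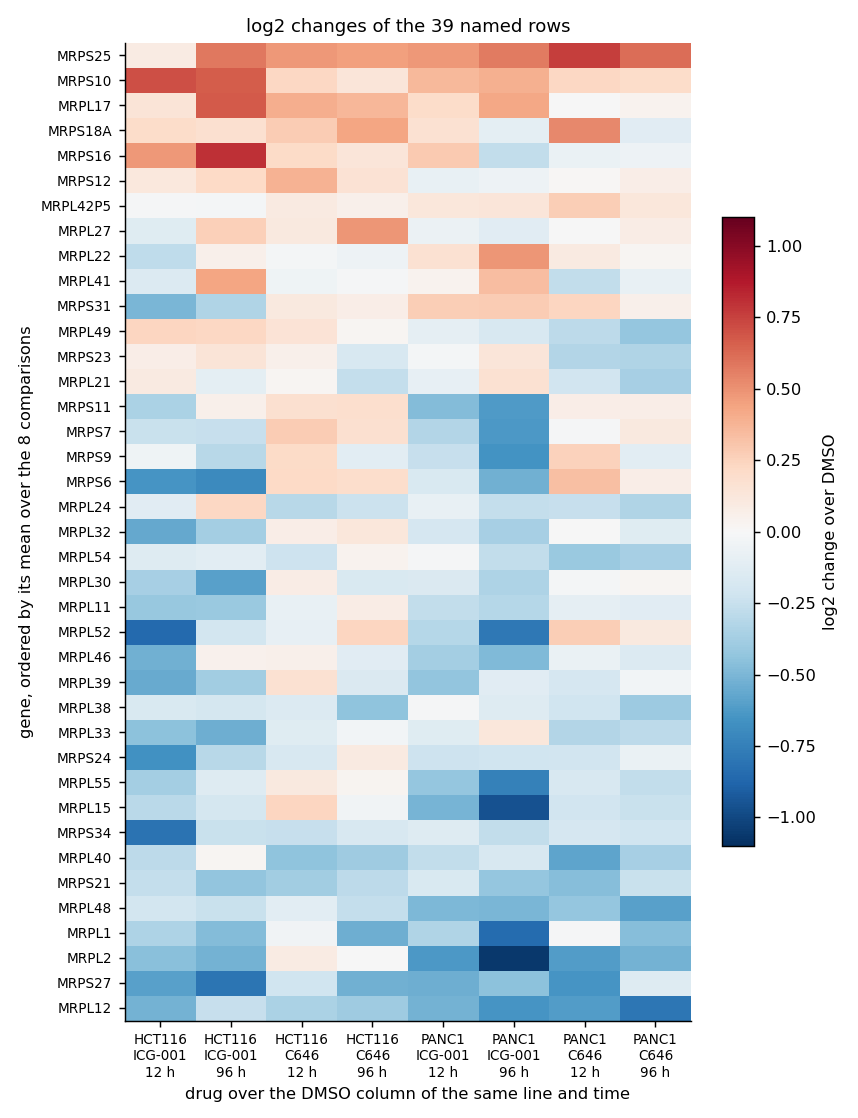
Log2 change over DMSO of 39 mitochondrial ribosomal protein genes (rows, ordered by their mean over the 8 comparisons) in each line, drug and time (columns). Red is higher and blue lower than DMSO; MRPS25 and MRPS10 at the top are red in all 8 columns, and MRPS27 and MRPL12 at the bottom are blue in all 8.

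Setting ICG-001 directly against C646, with no DMSO column involved, gave a lower level with ICG-001 in HCT116 and little net shift in PANC1. In HCT116 at 12 h 58 of the 77 genes were lower with ICG-001, the median was -0.20, and 34 fell by 1.2-fold (14.7% of all genes) against 1 that was higher (13.6%). At 1.5-fold 6 were lower (2.84%), MRPS6, MRPL52, MRPL39, MRPL32, MRPS31 and MRPL46, and none was higher (3.47%). At 96 h the median was -0.11, with 18 lower (14.2%) and 11 higher (13.4%) by 1.2-fold, and at 1.5-fold MRPS6 was lower (3.30%) and MRPS16 higher (3.25%). In PANC1 the medians were 0.00 and -0.02. At 12 h 13 were lower (8.83%) and 6 higher (9.45%) by 1.2-fold, and none passed 1.5-fold (0.931% lower, 1.58% higher). At 96 h 18 were lower (13.9%) and 15 higher (13.9%), and 5 were lower by 1.5-fold (3.50%), MRPL52, MRPS7, MRPL15, MRPS11 and MRPS6, while none was higher (3.35%).

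Other lists of mitochondrial gene expression had medians nearer 0 with ICG-001. With ICG-001 in HCT116 at 12 and 96 h the median log2 change of 25 assembly factor genes was -0.04 and 0.04, that of 16 translation factor genes 0.05 and 0.05, and that of 17 mitochondrial tRNA synthetase genes 0.07 and -0.08. A few names of a list can be older and newer names of 1 gene. Within the translation factors TUFM, which brings charged tRNAs to the mitochondrial ribosome, fell by 0.63 and 1.07 with ICG-001 in HCT116 and by 0.39 and 0.93 in PANC1. It fell by 0.60 with C646 in PANC1 at 12 h. GUF1, a translation GTPase, and MTIF2, the initiation factor, rose by 0.84 and 0.64 in HCT116 under ICG-001 at 12 h. Of the assembly genes NGRN rose by 0.88 and the RNA helicase DDX28 by 0.64 with ICG-001 in HCT116 at 96 h, and C4orf14, the older name of the GTPase NOA1, fell by 0.60.

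Of 7 ribosomal proteins of the organelle that carry other names, CHCHD1 fell by 0.62 with ICG-001 in HCT116 at 12 h, AURKAIP1 by 0.71 with ICG-001 in PANC1 at 96 h and GADD45GIP1 by 0.59 with C646 in PANC1 at 12 h. Their median over DMSO lay between -0.16 and 0.05. Among the 15 genes of mitochondrial transcription and its regulators, POLRMT, the mitochondrial RNA polymerase, fell by 0.71 with ICG-001 in HCT116 at 12 h. The transcription factor MYC fell by 0.98 at 96 h in the same line and rose by 0.53 in PANC1 at 12 h. The nuclear receptor ESRRA fell by 0.60 with C646 in PANC1 at both times. GABPB2 of the same list rose with C646, by 0.79 and 0.46 in HCT116 at 12 and 96 h and by 0.65 and 0.33 in PANC1.

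The nuclear genes of oxidative phosphorylation, many of whose products join proteins made by the mitochondrial ribosome, lay below DMSO in the median in all 8 comparisons. Their HCT116 medians were -0.27 and -0.17 with ICG-001 at 12 and 96 h, and -0.20 and -0.12 under C646. Their PANC1 medians were -0.07 and -0.11 with ICG-001, and -0.08 and -0.12 under C646. In HCT116 with C646 at 12 h they lay lower than the mitochondrial ribosomal proteins, of which the median was 0.03. There 27 of the 73 compared fell (11.3% of all genes) and 3 rose (10.7%) by 1.2-fold. The 89 genes matching the names of cytosolic ribosomal proteins had medians between -0.10 and 0.00 in all 8 comparisons.

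**Figure D5:**
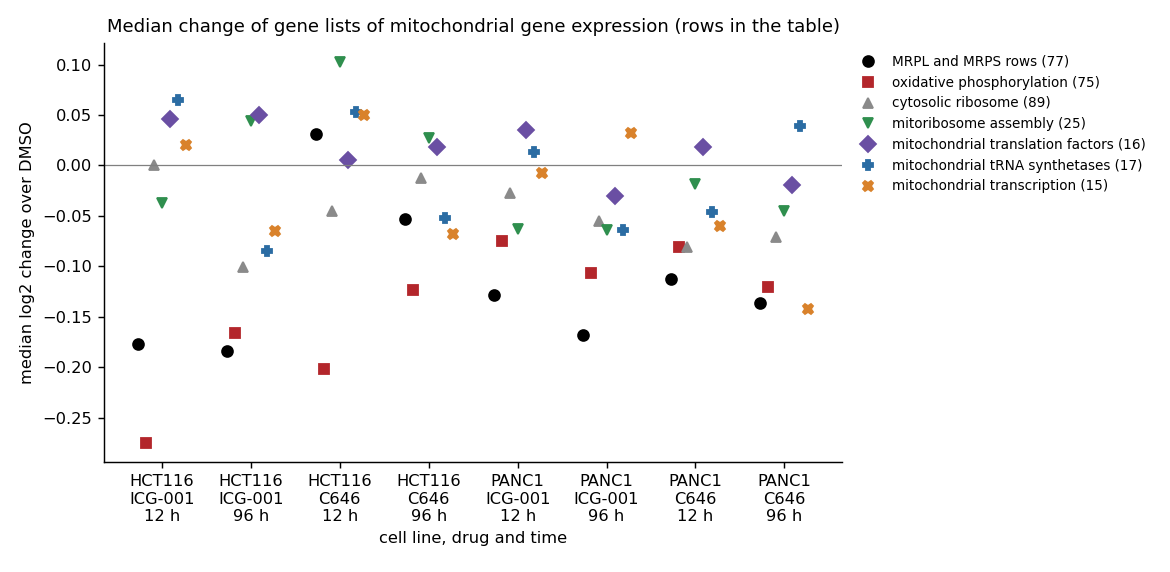
Median log2 change over DMSO of the 77 mitochondrial ribosomal protein genes (black circles) and of 6 other gene lists in each line, drug and time, with the number of genes found in parentheses. The black circles lie lowest of the lists or next to lowest in every comparison but C646 at 12 h and 96 h in HCT116, and the oxidative phosphorylation genes lie lowest in 3 of the 4 HCT116 comparisons.

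The lines were normalized apart, so that levels set across them carry that limit. In DMSO the median member differed by -0.00 (HCT116 minus PANC1, log2) at 12 h and -0.16 at 96 h, and by 0.08 and -0.07 after quantile normalization over all 12 columns. MRPL45 had the largest excess in HCT116, 1.498 at 12 h and 1.38 at 96 h. MRPS12 had the largest excess in PANC1, with differences of -1.87 and -1.99, a signal of 1270 and 1109 in HCT116 against 4656 and 4406 in PANC1. Both kept their direction under the joint normalization, at 1.57 and 1.45 for MRPL45 and -1.80 and -1.93 for MRPS12.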

How the data were processed

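RNA of the 12 groups was hybridized to Illumina HT-12 v4 BeadChips. The table deposited by the authors holds linear signal intensity with 1 row per gene name, exported from GenomeStudio after quantile normalization without background subtraction. Leaving the background in makes changes of dim genes look smaller. Replicate arrays were averaged by the authors, 2 per column in 11 columns and 3 in 1, so depth and error per array were not used here, and the number of arrays limits the precision. The authors' software version is not given in the sources used here.

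Columns were compared as differences of log2 signal, with no test. A gene counted as detected above the most common value of a column plus 2.33 standard deviations, estimated from the values under that peak, and entered a comparison when detected in either column. Groups were taken from the labels. The 39 members named were those changed 1.5-fold in any of the 12 drug comparisons (23 genes), the 3 highest and 3 lowest of each, those changed 1.2-fold one way in all 4 comparisons of a line or drug, and those opposite in the lines. Other members named in counts or medians (MRPL20 among them) were chosen after their values were seen. The context genes named are at most 3 a list, except that GABPB2 was added for mitochondrial transcription. The members, the gene lists and the motifs were chosen with earlier results of these data known. A gene enters a list under each name the table holds, old or new. Sequences and gene names were taken from RefSeq tables. The 8 alternatives to the processing and the fold of 2.0 are given in the closing section, with normexp (offset 16) run in limma 3.58.1 under R 4.3.3. Other steps used Python 3.11.15, numpy 2.4.6 and pandas 2.3.3, and the code was tested on simulated data. The values of 1 marker gene are not reported here.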

Additional observations from a re-analysis of the deposited data

Results flagged for a closer look

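MRPL49, a large-subunit protein without a bacterial counterpart, was above DMSO in all 4 comparisons of HCT116 and below it in all 4 of PANC1. The log2 changes lay between 0.02 and 0.24 in HCT116 (mean 0.16) and between -0.43 and -0.10 in PANC1 (mean -0.25), so that the means differed by 0.41. The difference was not tested, and the 4 comparisons of a line share their DMSO columns in pairs. In DMSO alone MRPL49 was lower at 96 h than at 12 h in HCT116, at -0.65. Against the mean of both DMSO columns the HCT116 changes were 0.57 and 0.48 at 12 h and -0.10 and -0.30 at 96 h with ICG-001 and C646, so the pattern was not kept, while all 4 in PANC1 stayed below 0. It was the 1 member of 77 (1.30%) with such a pattern, which 330 of 17014 genes (1.94%) detected in both lines had. No member had all comparisons at 12 h on one side of DMSO and all at 96 h on the other.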

How the results depend on the processing

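No paired analysis was possible because the table used here holds the replicates of a group as 1 mean column, and for the same reason no replicate could be left out. Of 396 values recomputed, 362 moved by less than the limits used. No median over the members changed direction, but with current symbols only the MRPL median minus the MRPS median turned from 0.02 to -0.01 with ICG-001 in PANC1 at 12 h. With dim genes kept in, with 5 standard deviations in the limit, with current symbols only, or MRPS18A and MRPS30 with the large subunit, none moved beyond those limits. Using the mean of both DMSO columns of a line as the control moved the HCT116 values most. The median with ICG-001 at 12 h became -0.10, and that with C646 0.14 at 12 h and -0.15 at 96 h. The counts past 1.2-fold with C646 became 26 at 12 h and 27 at 96 h, and those past 1.5-fold 4 with C646 and 11 with ICG-001 at 96 h. In PANC1 the median with ICG-001 at 12 h became -0.065 with 0 members past 1.5-fold, and C646 at 12 h had 1 past 1.5-fold, upward, and 12 past 1.2-fold. After normexp background correction the counts past 1.5-fold with C646 became 1 (12 h) and 2 (96 h) for HCT116 and 8 and 6 for PANC1. They became 4 with ICG-001 in PANC1 at 12 h (median -0.19), and for ICG-001 over C646 10 in HCT116 at 12 h and 3 and 9 in PANC1. At 2-fold, 1 member was left with ICG-001 in PANC1 at 96 h and 0 in the other comparisons with a member past 1.5-fold. Centring or joint quantile normalization gave 1 member past 1.5-fold for ICG-001 over C646 in PANC1 at 12 h. The cause was not tested, beyond the higher fold and the changed control themselves. Signals near the limit, as for MRPL42P5, do not resolve a change.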
